A study of Mus musculus with 12 samples.

Results

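Interferon-induced genes, the antiviral and regulatory genes that a cell switches on when it senses an interferon, were followed here in sorted mouse thymocytes and thymic lymphomas. The set was a list of 39 such genes, chosen by name but with earlier results of these data known. The arrays gave 19938 genes in all a row that names them alone. Of the 39, 35 had such a row, 3 shared a row with another gene (Isg15 with Gm9706, Gbp2 with Gbp2b, Igtp with Irgm2), and Ifi44 was not analysed here. Ifit3 and Mx1 lay below the filter on dim genes, a mean log2 signal of 4.78, so 33 members entered the tests.

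RNA was compared between 3 groups of C57/BL6 mice. The control group was 3 samples of wild-type DN3 thymocytes, the double-negative stage at which T cell precursors rearrange the T cell receptor beta gene, from animals of 8 to 12 weeks. The second group was 3 samples of DN3 thymocytes from TCF-1 KO mice of the same age range, which lack the T cell transcription factor TCF-1. The third was 6 T cell lymphomas sorted from the thymus of diseased TCF-1 KO mice of 12 to 40 weeks, so every lymphoma also lacked TCF-1, and the labels give neither the knockout allele nor the extent of other thymic cells in each sort. No animal was treated with interferon or infected, as far as the labels state.

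Interferons act in a relay. A cell that senses viral or displaced nucleic acid through RIG-I, MDA5 or cytosolic DNA sensors makes type I interferon, which binds IFNAR1 and IFNAR2 on the same or neighbouring cells, activates the kinases JAK1 and TYK2, and sends STAT2 and IRF9 to interferon-stimulated response elements in the promoters of target genes. Interferon gamma uses IFNGR1 and IFNGR2, JAK1 and JAK2, and gamma-activated sites in its target genes, and it is the main inducer of the guanylate-binding proteins. Thymic epithelial cells make type I interferon without infection, and resting thymocytes carry some of these transcripts.

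Promoters are shown for 5 members whose signals differed between groups and that had a promoter entry, because the members are known as targets of factors that bind the response element. Each is read from RefSeq for mouse GRCm38.p6 and runs 5′ to 3′ on the strand of the gene, from 130 bases before to 30 bases after the start; capitals mark matches to the core of the response element, GAAA and GAAA again with any 2 bases between them, searched on either strand, overlapping matches included. The windows are chr7:141010715-141010874 (minus strand) for Ifitm3, chr19:34640759-34640918 (plus) for Ifit1, chr4:40239796-40239955 (minus) for Ddx58, chr6:3399542-3399701 (minus) for Samd9l and chr7:140967946-140968105 (plus) for Ifitm1.
Ifitm3: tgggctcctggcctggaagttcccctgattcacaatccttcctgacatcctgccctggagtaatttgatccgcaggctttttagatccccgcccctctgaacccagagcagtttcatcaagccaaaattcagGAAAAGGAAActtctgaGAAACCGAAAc
Ifit1: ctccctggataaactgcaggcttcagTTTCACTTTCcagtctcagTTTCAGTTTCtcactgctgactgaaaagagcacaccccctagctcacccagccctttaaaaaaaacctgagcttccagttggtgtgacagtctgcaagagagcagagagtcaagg
Ddx58: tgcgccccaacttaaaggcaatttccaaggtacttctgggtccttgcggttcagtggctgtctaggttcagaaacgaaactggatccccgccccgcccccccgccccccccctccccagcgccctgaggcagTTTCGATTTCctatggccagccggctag
Samd9l: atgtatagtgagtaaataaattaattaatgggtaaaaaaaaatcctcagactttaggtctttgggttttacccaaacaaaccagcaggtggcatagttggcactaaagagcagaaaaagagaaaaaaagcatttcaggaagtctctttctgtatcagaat
Ifitm1: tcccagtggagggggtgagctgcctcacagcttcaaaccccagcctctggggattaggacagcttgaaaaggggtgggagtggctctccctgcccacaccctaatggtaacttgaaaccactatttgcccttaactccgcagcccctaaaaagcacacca

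These genes are read on the array by transcript clusters 10569017 (Ifitm3), 10462623 (Ifit1), 10512067 (Ddx58), 10542911 (Samd9l) and 10558769 (Ifitm1), and Gbp8 by 10531972. The Ifitm3 window holds 2 matches just after the start, at bases 3 to 12 and 20 to 29, both on the coding strand. Ifit1 has 2 before the start, at -104 to -95 and -85 to -76, and Ddx58 has 1 at bases 3 to 12, all on the opposite strand. The windows shown for Samd9l and Ifitm1 hold none of these letters. Over longer windows, from 250 bases before to 50 after the start, 16 of the 29 members with an entry held the core (55.2%), against 3.99% of 27025 genes. The gamma-activated site TTCNNNGAA was found in 8 of the 29 (27.6%) and in 9.55% of all genes. The TCF/LEF motif CTTTGAT, searched because the mice lack TCF-1, was in 0 of the 29 and in 4.29% of all genes. A match is a run of letters and not a measured binding site.

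The arrays had median log2 signals of 5.30 to 5.39. Rows with no gene name split them into 2 sets, a smaller of 4 arrays (replicate 1 of each DN3 group and lymphomas 1 and 2) and a larger of 8. These sets are called batches here, but they were inferred from the values. The split had 34 rows, against 27 for the next, which set lymphomas 1 and 2 apart. Xist was low, and the Y-linked genes Uty and Kdm5d were high, on TCF-1 KO DN3 array 3 and lymphomas 1, 2 and 6. The other 8 arrays, with all 3 wild-type arrays among them, had the reverse pattern. The sex of the mice thus differed within the knockout and lymphoma groups, and in part between these groups and wild type. The 9 DN3 markers with a row, among them Il2ra, Ptcra, Cd3e and Thy1, all lay above the filter. Below it lay 4 of 11 markers of conventional dendritic cells and macrophages (Itgax, Xcr1, Clec9a and Adgre1), 2 of 5 of B cells (Cd79a and Ms4a1) and 3 of 6 of NK cells (Ncr1, Klrb1c and Klrk1), and the other 7, 3 and 3 were tested. Of those, Gzma was called higher in the knockout and in the lymphomas than in wild type (by 0.68 and 0.66, limma adjusted p 0.017 and 0.0238). Nkg7 and Cd79b were called lower in the lymphomas than in wild type (differences of -1.50 and -0.95) and than in the knockout (-1.18 and -0.82), and H2-Ab1 was 0.72 higher in the lymphomas than in the knockout (limma adjusted p 0.0261). Their part in the results was not tested. The replicates are labelled biological, but nothing says how the mice were related, so each p-value measures the spread between these samples. In bulk RNA, fewer cells expressing a gene and less RNA per cell cannot be told apart.

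**Figure D1:**
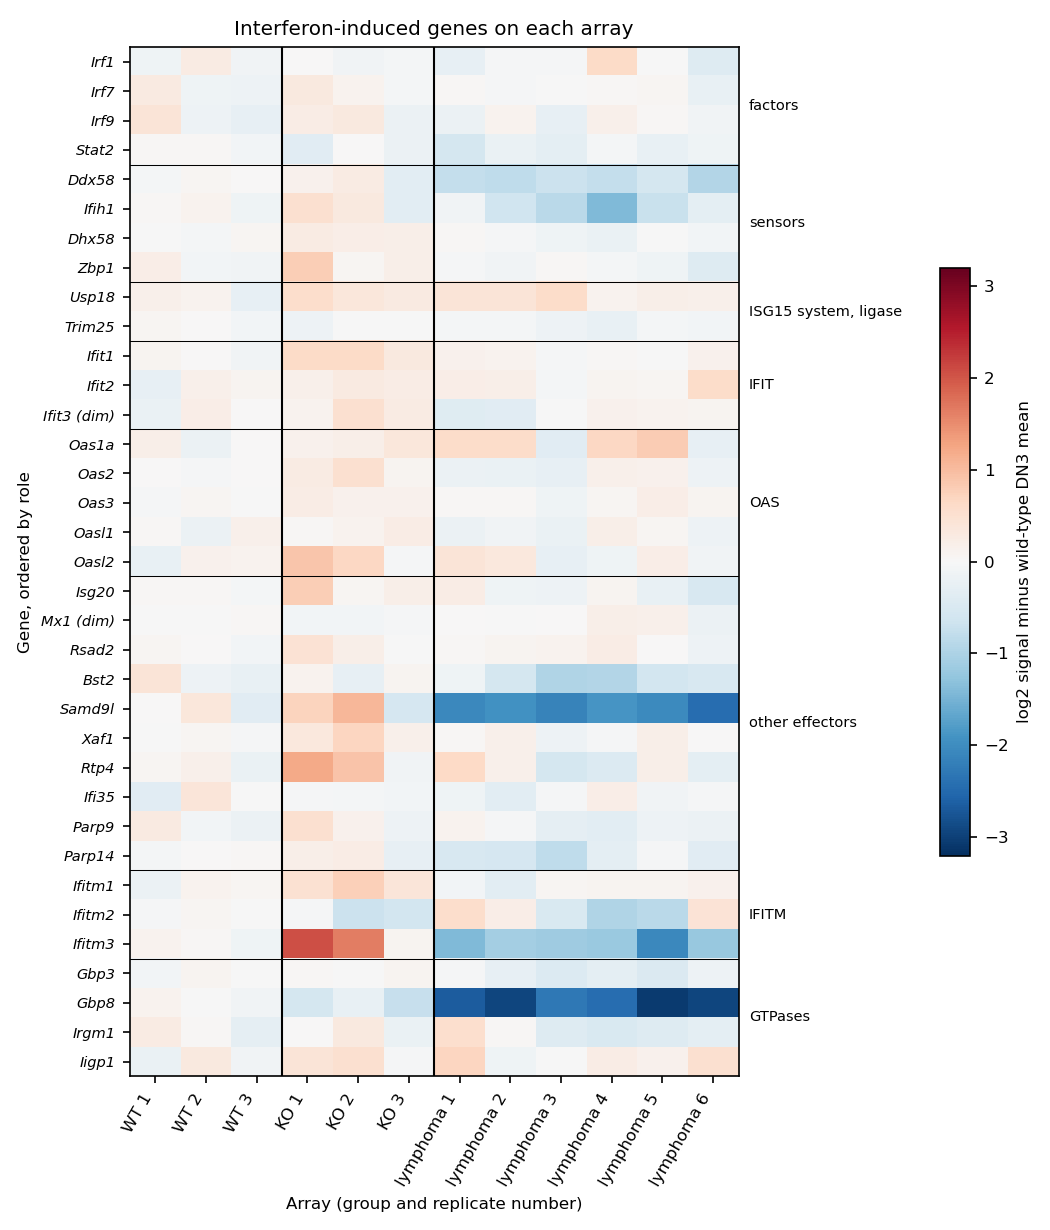
Heat map of the 35 interferon-induced genes with a row of their own, in order of role (rows), on the 12 arrays (columns: WT, wild-type DN3; KO, TCF-1 KO DN3; lymphoma), coloured by log2 signal minus the wild-type mean; "dim" marks the 2 genes below the filter. Gbp8, Samd9l, Ifitm3 and Ddx58 are below the wild-type mean on all 6 lymphomas, and Ifitm3, Rtp4 and Samd9l are above it on TCF-1 KO arrays 1 and 2.

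The first comparison set TCF-1 KO DN3 cells against wild-type DN3 cells, which asks how these genes differ without TCF-1 in cells that are not lymphoma. The signals of most members were slightly higher in the knockout, by a median of 0.17 on the log2 scale, against 0.03 over all genes. Ifitm3, Rtp4, Ifitm1, Ifit1, Oasl2, Usp18 and Xaf1 had the widest positive differences among those with an unadjusted p under 0.05, between 0.39 and 1.26, while the guanylate-binding protein Gbp8 and Ifitm2 had differences of -0.51 and -0.45. None of the 33 passed limma's test with adjustment over all genes, where 1.99% of the 14953 genes tested did (0.568% higher, 1.42% lower). At an unadjusted p under 0.05 there were 8 members higher and 2 lower, against 6.06% and 10.3% of all genes. In all, 26 of 33 members lay above 0, against 55.3% of all genes, and 22 did once each array was centred on its median.

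The knockout arrays did not behave alike. On arrays 1 and 2, 20 of the 33 members (60.6%) lay above all 3 wild-type arrays, where 36.0% and 27.5% of all genes did. On array 3 the figure was 12 members (36.4%), and 34.5% of all genes. The median member stood 0.25 and 0.21 above the wild-type mean on arrays 1 and 2, and at -0.02 on array 3. Array 3 was the lowest knockout array for 22 of 33 members (66.7%), against 30.0% of all genes, and it is the only knockout array with low Xist, so sex and that array cannot be told apart.

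**Figure D2:**
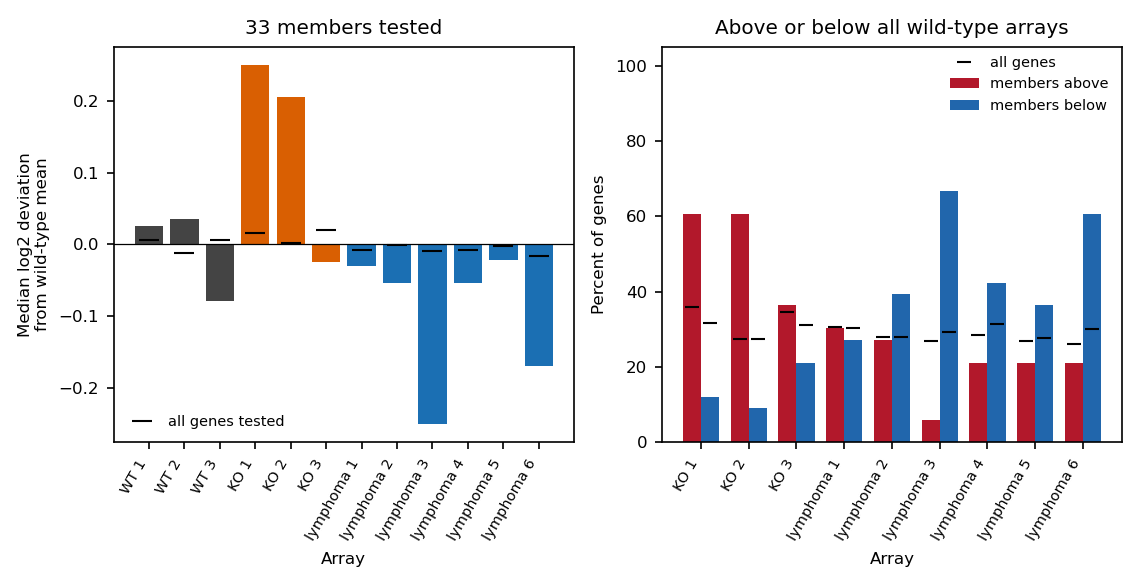
Left, the median deviation of the 33 tested members from the wild-type mean on each array (bars, log2), with the same median over all 14953 genes (dashes). Right, percent of members above (red) or below (blue) all 3 wild-type arrays, with the percent of all genes as dashes; KO 1 and KO 2 have 60.6% of members above, and lymphomas 3 and 6 have 66.7% and 60.6% below.

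Which members were involved differed in kind. There were 8 members above wild type on all 3 knockout arrays (Dhx58, Ifit1, Ifitm1, Isg20, Oas2, Oas3, Usp18 and Xaf1), a pattern that 10.4% of all genes had. A further 9 were above wild type on arrays 1 and 2 but not on array 3: Ddx58, Ifih1, Ifitm3, Iigp1, Oasl2, Parp14, Rsad2, Rtp4 and Samd9l. That pattern was found for 3.75% of all genes. The pattern of arrays 1 and 3 without array 2 was found for 0 members and 9.72% of all genes. Of the 33 tested members, Gbp8 and Ifitm2 had every knockout array below every wild-type array, as 11.6% of all genes did, and so did the dim Mx1, by a narrow margin.

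Ifitm3 encodes a membrane protein that blocks virus entry from endosomes. Its log2 signals were 7.28, 7.20 and 7.03 in wild-type replicates 1, 2 and 3, and 9.24, 8.80 and 7.26 in the knockout. Knockout arrays 1 and 2 were far above wild type and array 3 lay within the wild-type range. The difference was 1.26 (SE 0.38, 95% interval 0.42 to 2.10, n = 3 and 3), with an adjusted p of 0.137 by limma, 0.00674 with replicate number as a block, and 0.00148 without knockout array 3, where the difference was 1.85. Without knockout array 1 it was 0.86 (limma adjusted p 0.226). Within the batches it was 1.96 in the smaller and 0.91 in the larger.

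Rtp4 encodes an interferon-induced chaperone of receptors that also restrains RNA viruses. It followed the same arrays, at 6.89, 6.98 and 6.61 in wild type and 8.04, 7.74 and 6.72 in the knockout. Knockout array 3 again lay inside the wild-type range. The difference of 0.67 (95% interval 0.07 to 1.28) had an adjusted p of 0.255 by limma, 0.021 with the block, and 0.0254 without knockout array 3, where it was 1.06. Without knockout array 1 it was 0.40 (limma adjusted p 0.453).

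Ifit1, whose product binds viral RNA lacking the host cap modification, stood apart from wild type on every knockout array. It was at 5.56, 5.48 and 5.36 in wild type and 6.07, 6.07 and 5.79 in the knockout. The groups did not overlap, and the difference of 0.51 (95% interval 0.23 to 0.78) was nearly equal in the batches, 0.51 and 0.50. Its adjusted p was 0.0731 by limma, 0.0100 with the replicate block and 0.0240 in 1 limma fit to all 12 arrays, where Ifit1 was the member called and 1.87% of all genes were. Ifit2 differed by 0.23 (95% interval -0.07 to 0.53) and the dim Ifit3 was 0.29 higher, each with overlapping arrays.

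Ifitm1, a relative of Ifitm3 in the same gene cluster, was at 5.20, 5.48 and 5.45 in wild type and 5.86, 6.14 and 5.77 in the knockout. All 3 knockout arrays were above all 3 wild-type arrays, by 0.55 on average (95% interval 0.25 to 0.85, limma adjusted p 0.0757, and 0.00983 with the block). Its other row on the array differed by 0.32. Ifitm2 went the other way, at 7.58, 7.67 and 7.61 in wild type and 7.57, 6.92 and 7.03 in the knockout (difference -0.45, 95% interval -0.81 to -0.09, limma adjusted p 0.207). Its 3 rows disagreed, with differences of -0.45, -0.60 and -0.04, and probes of such close relatives can take up each other's RNA, so values within the IFITM family are uncertain.

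The 5 members of the 2′-5′ oligoadenylate synthetase family, which make the signal that activates RNase L or, for the OASL proteins, steer RNA sensing, were all above wild type on average, under each scaling of the arrays, and 0 of the 5 were called. Oasl2 was at 5.73, 6.10 and 6.10 in wild type and 6.87, 6.64 and 5.93 in the knockout, again with array 3 within the wild-type range. Its difference was 0.50 (95% interval 0.03 to 0.98, limma adjusted p 0.276), or 0.31 without knockout array 1 and 0.78 without knockout array 3 (limma adjusted p 0.484 and 0.0769). Oas2, Oas1a, Oas3 and Oasl1 differed by 0.29, 0.23, 0.17 and 0.13.

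Usp18 encodes the protease that removes ISG15 from proteins and damps signalling at IFNAR2. It was at 5.94, 5.90 and 5.53 in wild type and 6.34, 6.16 and 6.09 in the knockout, without overlap. The difference of 0.41 had an adjusted p of 0.186 by limma and 0.0339 with the block. The row shared by Isg15 and Gm9706 was at 5.54, 5.26 and 5.04 in wild type and 5.35, 5.87 and 5.44 in the knockout, with overlapping arrays. Trim25, the ubiquitin ligase that acts on RIG-I, differed by -0.06 (95% interval -0.31 to 0.19).

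The transcription factors of the pathway showed no call. Irf7, Irf9, Irf1 and Stat2 differed by 0.12, 0.12, -0.05 and -0.18, and the widest of their 95% intervals, for Irf9, ran from -0.30 to 0.54. Among the sensors, Ddx58 (RIG-I), Ifih1 (MDA5), Dhx58 (LGP2) and the Z-nucleic acid sensor Zbp1 differed by 0.02, 0.16, 0.21 and 0.34, with 0 called. The signals of Ddx58 and Ifih1 were each above wild type on knockout arrays 1 and 2 and below it on array 3.

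Of the GTPases, Gbp8 was the member that differed downward. It was at 10.11, 9.98 and 9.88 in wild type and 9.43, 9.77 and 9.26 in the knockout, with every knockout array below every wild-type array. The difference was -0.51 (95% interval -0.83 to -0.19, limma adjusted p 0.112, and 0.0186 with the block). The other GTPases, Gbp3, Irgm1 and Iigp1, differed by 0.04, 0.04 and 0.30. The row shared by Gbp2 and Gbp2b was at 5.49 to 5.95 in wild type and 5.46 to 5.93 in the knockout, and that of Igtp and Irgm2 at 6.53 to 6.86 and 6.44 to 6.96.

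The remaining effectors gave 0 calls. Samd9l, an interferon-induced restraint on growth and translation, was at 6.33, 6.69 and 5.96 in wild type and spread from 5.80 to 7.39 in the knockout. Xaf1, which promotes cell death, and the nuclease gene Isg20 did not overlap with wild type, with differences of 0.39 and 0.35 (limma adjusted p 0.210 and 0.340). Rsad2 (viperin), Parp9, Parp14, Bst2 (tetherin) and Ifi35 differed by 0.21, 0.16, 0.05, -0.02 and -0.06. The dim Mx1 was at 4.31 to 4.37 in wild type and 4.25 to 4.31 in the knockout.

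Replicate numbers were taken as pairs in this comparison from the array values themselves, since the labels do not say what they mark. With the number as a block 6 members passed limma's test. Ifitm3, Rtp4, Ifitm1, Ifit1 and Usp18 rose and Gbp8 fell, where 9.23% of all genes were called (2.88% higher, 6.35% lower). With batch as a term there were 3 (Ifit1, Ifitm1 and Ifitm3, all higher; 5.04% of all genes, 1.52% higher), and without knockout array 3 there were 2 (Ifitm3 and Rtp4, both higher; 0.843% of all genes, 0.455% higher). The whole table split into 85 calls upward and 213 downward, or 93 and 146 after a further quantile normalisation, which called 0 members. Summed log2 signals of 6 NK markers were 34.0 to 35.6 in wild type and 36.8, 36.2 and 35.2 on knockout arrays 1, 2 and 3, and those of 7 plasmacytoid dendritic cell markers were 44.6 to 45.5 and 43.4 to 44.0. Of the 3 NK markers tested Gzma was called higher. Of the 7 plasmacytoid markers Ccr9 and Tcf4 were called lower (differences of -1.14 and -0.52, limma adjusted p 0.00569 and 0.0441). However, 4 of those 7 lay above 0 and 3 below, with a median difference of 0.04, against 0.03 over all genes. The 3 markers of double-positive thymocytes, the stage after DN3, summed to 16.3 to 17.2 in wild type and 19.5 on each knockout array, with 2 of the 3 called higher. Their part in these differences was not tested.

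**Figure D3:**
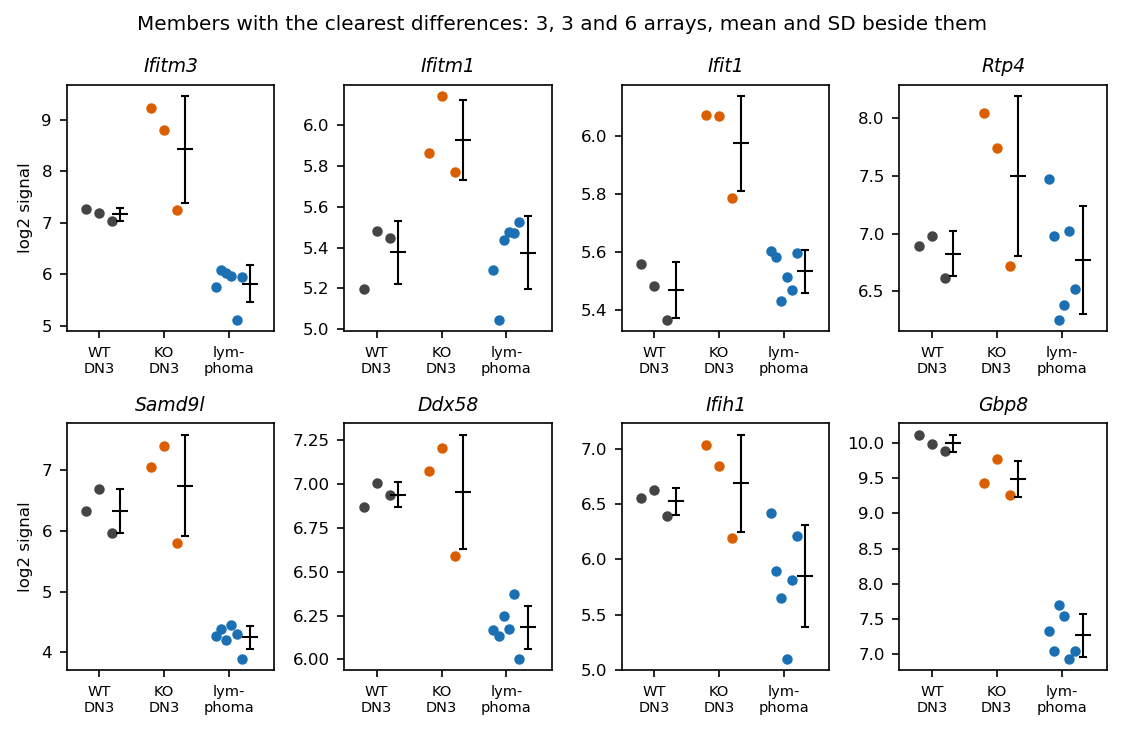
Log2 signals of 8 members in wild-type DN3, TCF-1 KO DN3 and lymphoma (points, 3, 3 and 6 arrays in replicate order; bars, mean and SD; each panel has its own axis, which does not start at 0). The third knockout point lies far below the other two for Ifitm3, Rtp4, Samd9l, Ddx58 and Ifih1, and all 6 lymphomas lie below both DN3 groups for Ifitm3, Samd9l, Ddx58 and Gbp8.

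Lymphomas were next compared with the wild-type cells. The 3 wild-type arrays are those of the comparison above, so the results are not independent. Gbp8, Samd9l, Ifitm3 and Ddx58 fell in the lymphomas, by 6.60-fold, at least 2.92-fold, 2.55-fold and 1.69-fold, and no member rose. The bound for Samd9l sets the lymphomas at the level of the filter on dim genes, since they lay below it. Samd9l passed that filter through its DN3 arrays, so its call adds nothing to the count, which is 3 without it. The 4 of 33 members called lower stand against 2.86% of all genes called lower and 2.96% higher (5.82% in all). These were also the 4 members whose arrays did not overlap, all lower, against 5.04% of all genes lower and 5.28% higher. At an unadjusted p under 0.05 there were 9 members lower and 1 higher, against 7.68% and 7.86% of all genes. In all, 24 of 33 lay below 0, against 51.7%, and the median member differed by -0.08, against -0.01 over all genes.

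Gbp8 belongs to the guanylate-binding proteins, interferon-induced GTPases that attack the membranes around intracellular pathogens. Its log2 signals were 10.11, 9.98 and 9.88 in wild type and between 6.94 and 7.71 in the lymphomas, with a median of 7.19. The brightest lymphoma was thus still far below the dimmest wild-type array. The difference was -2.72 (SE 0.16, 95% interval -3.08 to -2.37, n = 6 and 3) with a limma adjusted p of 1.19e-06, and it was -2.93 and -2.62 within the smaller and larger batches.

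Samd9l was at 6.33, 6.69 and 5.96 in wild type and between 3.89 and 4.44 in the lymphomas, with a median of 4.28. All 6 lymphomas lay below 4.78, the level of the filter on dim genes, so its level there is at the dim end of the array. The difference in measured signal was -2.08 (SE 0.15, 95% interval -2.42 to -1.75, limma adjusted p 6.45e-06), and -2.01 and -2.12 in the batches.

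Ifitm3 was between 5.12 and 6.08 in the lymphomas, with a median of 5.96, and 7.03 to 7.28 in wild type. No lymphoma reached the wild-type range. It fell by 1.35 on the log2 scale (SE 0.18, limma adjusted p 0.000657), and the differences within the batches were -1.36 and -1.35.

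Ddx58, the gene of the RNA sensor RIG-I, was at 6.87, 7.01 and 6.94 in wild type and between 6.00 and 6.37 in the lymphomas, with a median of 6.17. The groups did not overlap, and the difference was -0.76 (SE 0.09, limma adjusted p 0.000264). The related sensor gene Ifih1 was at 6.39 to 6.63 in wild type and spread from 5.10 to 6.41 in the lymphomas, with a median of 5.85. Lymphoma 1 lay within its wild-type range, and the difference of -0.68 (95% interval -1.17 to -0.18) had a limma adjusted p of 0.133, and 0.0370 without lymphoma 1. Dhx58 and Zbp1 differed by -0.07 and -0.12.

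Bst2, which tethers budding virions to the cell surface, was at 7.46, 6.89 and 6.81 in wild type and between 6.09 and 6.92 in the lymphomas, with a median of 6.48. Lymphoma 1 overlapped with wild type, and the difference of -0.62 (95% interval -1.03 to -0.21) had a limma adjusted p of 0.0938, and 0.0124 with batch as a term. Parp14, an ADP-ribosyltransferase of the interferon response, differed by -0.43 (95% interval -0.72 to -0.13, limma adjusted p 0.110). Usp18 was the member with the lowest p among those above 0, at 0.31 (95% interval 0.03 to 0.59, limma adjusted p 0.254).

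Several members varied widely among the tumours. Ifitm2 was at 7.58 to 7.67 in wild type and ran from 6.66 to 8.18 in the lymphomas, with a median of 7.47. Lymphomas 1, 2 and 6 were above all wild-type arrays and lymphomas 3, 4 and 5 below them, and Xist was low in the former 3 and high in the latter 3. Oas1a ran from 5.17 to 6.33 with a median of 6.11, with lymphomas 3 and 6 low and the other 4 above the wild-type range of 5.33 to 5.71. Its difference of 0.34 (95% interval -0.21 to 0.89, limma adjusted p 0.649) was the largest positive one among the 33. Irf1, Rtp4, Irgm1 and Ifih1 also ranged over more than 1 log2 unit among the lymphomas.

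Members near wild type were the IFIT, remaining OAS and factor genes. Ifit1 and Ifit2 differed by 0.06 and 0.18, with 95% intervals of -0.11 to 0.24 and -0.13 to 0.49. Ifitm1 had a difference of -0.00 (95% interval -0.25 to 0.25). Irf7, Irf9 and Irf1 differed by -0.02, -0.04 and -0.03, and Stat2 by -0.25 (95% interval -0.48 to -0.02, limma adjusted p 0.264). Of the other GTPases, Gbp3 differed by -0.28, Irgm1 by -0.17 and Iigp1 by 0.24, and the row of Gbp2 and Gbp2b was at 5.21 to 5.65 in the lymphomas, below or within the wild-type range. The row of Igtp and Irgm2 was at 6.00 to 6.48, below all 3 wild-type arrays, and that of Isg15 and Gm9706 at 4.86 to 5.64.

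The remaining members also missed the threshold. Oas2, Oas3, Oasl1 and Oasl2 differed by -0.09, 0.05, -0.08 and 0.08, and Trim25 by -0.11. Isg20, Rsad2, Xaf1, Rtp4, Ifi35 and Parp9 differed by between -0.14 and 0.06. The dim Ifit3 and Mx1 differed by -0.07 and 0.03, with overlapping arrays.

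The tumours differed in how many members they held below wild type. In lymphoma 3, 22 of 33 members (66.7%) lay below all wild-type arrays, and in lymphoma 6 there were 20 (60.6%), where 29.2% and 30.1% of all genes did. Lymphomas 1, 2, 4 and 5 had 9, 13, 14 and 12 members below, where 30.5%, 27.9%, 31.5% and 27.7% of all genes lay. Lymphoma 3 was also the lowest of the 6 for 12 members (36.4%, against 15.7% of all genes), and lymphoma 1 the highest for 13 (39.4%, against 20.6%).

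The 4 calls held in all 9 fits that left out 1 array. With Xist as a term 8 members were called, all lower (Gbp8, Samd9l, Ifitm3, Ddx58, Ifih1, Bst2, Gbp3 and Ifitm2), where 3.13% of all genes were called lower. Every wild-type array had high Xist, so in this fit the difference is that of lymphomas 3, 4 and 5 alone. Lymphomas 1, 2 and 6 add to the estimate of spread only, and Ifitm2 lay above wild type in them. Batch as a term called 5, the 4 with Bst2 (3.55% of all genes lower). The replicate number as a block called 6, adding Parp14 (2.42%). That block fit left out lymphomas 4, 5 and 6, whose numbers no wild-type array has. The numbers of lymphomas and DN3 arrays did not pair, so the block calls are no support in this comparison. The summed signal of the 7 thymic stroma markers was 39.6 to 39.7 in wild type and 37.8 to 38.8 in the lymphomas, that of the 7 plasmacytoid dendritic cell markers 44.6 to 45.5 and 41.1 to 43.6, and that of the 9 DN3 markers 81.9 to 82.9 and 76.5 to 82.3. Of these markers 1 of 7, 2 of 7 and 3 of 9 were called lower, and 1 of the 9 DN3 markers, Dtx1, was called higher (by 0.92, limma adjusted p 7.69e-05); their part in the falls was not tested.

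**Figure D4:**
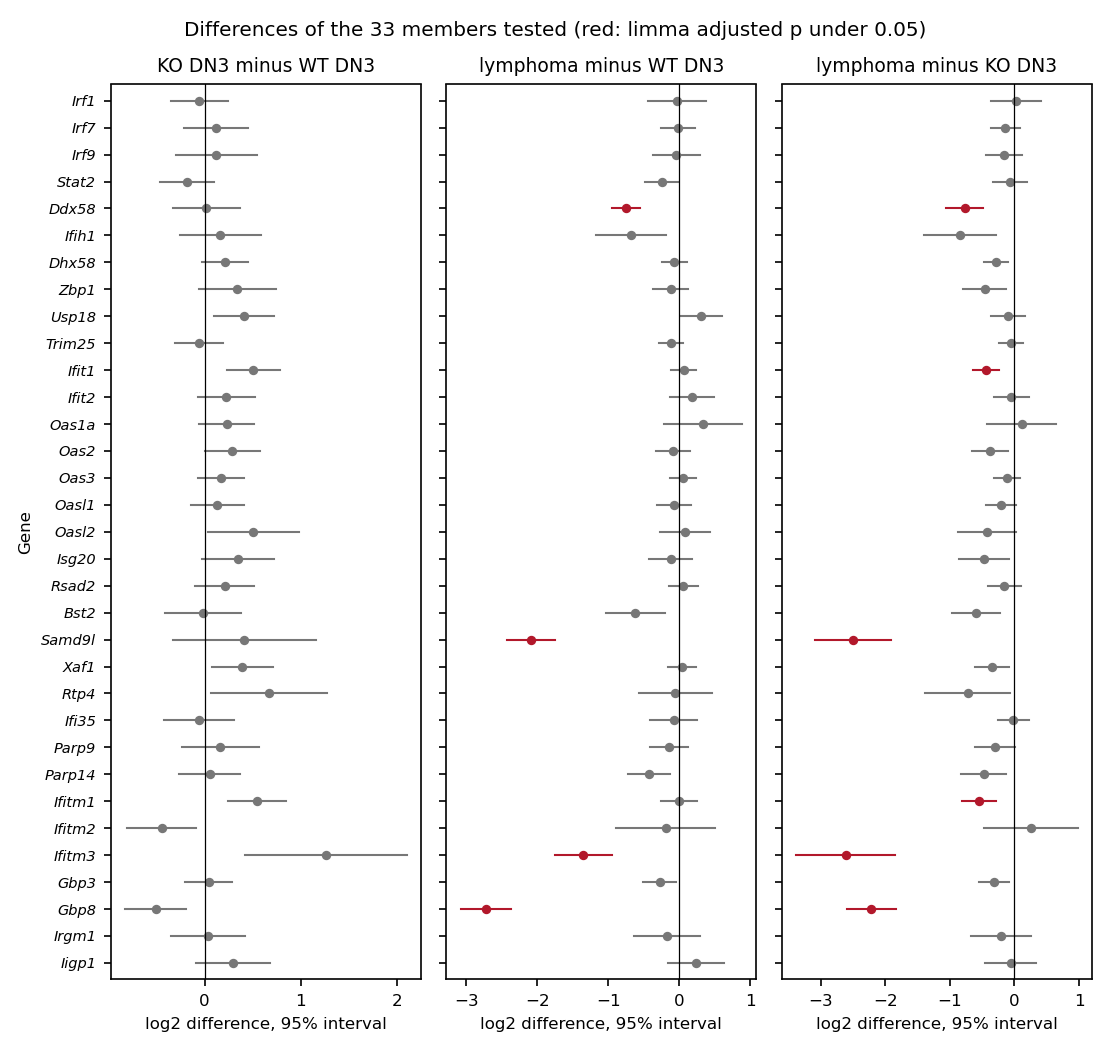
Log2 differences (points) with 95% intervals (lines) of the 33 tested members in each of the 3 comparisons; red marks a limma adjusted p under 0.05. There are 0 red members in the left panel, 4 in the middle and 6 on the right, all 10 of them below 0.

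Lymphomas were last compared with TCF-1 KO DN3 cells, which share the genotype but come from younger mice without tumours. All of these arrays were used in the comparisons above. Ifitm3, Samd9l, Gbp8, Ddx58, Ifitm1 and Ifit1 fell in the lymphomas, by 6.11-fold, at least 3.9-fold, 4.64-fold, 1.71-fold, 1.46-fold and 1.36-fold, and no member rose. Samd9l is again set at the filter level in the lymphomas, and 5 members were called without it. The 6 of 33 called lower stand against 2.12% of all genes called lower and 4.5% higher (6.62% in all). The median member differed by -0.31, against -0.03 over all genes, and 30 of 33 members were below 0, against 56.5% of all genes, or 26 when each array was centred on its median.

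Ifitm3 was between 5.12 and 6.08 in the lymphomas against 9.24, 8.80 and 7.26 in the knockout. The difference of -2.61 (95% interval -3.38 to -1.85, limma adjusted p 0.00125) rests on knockout arrays that differ by up to 1.98 among themselves. Samd9l differed in measured signal by -2.50 (95% interval -3.08 to -1.91, adjusted p 0.000256) and Gbp8 by -2.21 (95% interval -2.60 to -1.83, adjusted p 2.63e-05). All 3 passed the limma test in every leave-one-out fit and in the larger batch alone.

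The smaller falls were less firm. Ddx58 differed by -0.77 (limma adjusted p 0.00521, and 0.0757 in the larger batch alone). Ifitm1 differed by -0.55 (adjusted p 0.0216) and was not called without knockout array 1 or 2 (0.0599 and 0.0634). Ifit1 differed by -0.44 (adjusted p 0.0154) and was not called without knockout array 1 (0.0724). For Ifitm1 and Ifit1 the lymphomas lay near wild type, at medians of 5.45 and 5.55, against wild-type medians of 5.45 and 5.48, so the knockout DN3 cells were the group that stood apart.

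A further 10 members had an unadjusted p under 0.05, all lower in the lymphomas, so that 16 of 33 did so, where 11.5% of all genes were lower and 13.2% higher at that level. The arrays of 9 members did not overlap, all lower, a pattern of 6.23% of all genes (7.34% were higher without overlap). Ifih1 was 0.84 below the knockout mean (95% interval of the difference -1.40 to -0.28, limma adjusted p 0.0716), and Rtp4 0.73 below it (95% interval -1.39 to -0.07, adjusted p 0.165). Dhx58 and Zbp1 differed by -0.29 and -0.46 without overlap, and Bst2, Parp14, Isg20, Oas2 and Xaf1 by between -0.60 and -0.35. Ifitm2, Oas1a and Irf1 were the 3 members above 0, at 0.26, 0.11 and 0.02.

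With batch as a term 11 members were called, all lower, the 6 above with Bst2, Dhx58, Ifih1, Isg20 and Zbp1, where 4.31% of all genes were called lower. In the larger batch alone Gbp8, Ifitm3 and Samd9l were called, against 0.816% of all genes lower. The replicate number as a block, which uses lymphomas 1, 2 and 3 alone, called 8, without Ifit1 and with Ifih1, Parp14 and Rtp4 (1.54%). Lymphoma numbers did not pair with knockout numbers, so these block calls are no support. The whole table split into 673 calls upward and 317 downward, or 966 and 206 with arrays centred on their medians. The 3 double-positive markers summed to 18.0 to 20.2 in the lymphomas and 19.5 in the knockout, and the 6 NK markers to 33.6 to 35.3 and 35.2 to 36.8. Among the 7 plasmacytoid, 7 stroma and 9 DN3 markers, 1 of each list was called higher and 2 lower. The part of all these markers in the falls was not tested.

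The pathway that turns these genes on was read from lists of its other parts. Over all genes, 1.99% were called in the knockout against wild type, 5.82% in lymphoma against wild type and 6.62% in lymphoma against knockout. Of 17 interferon genes, 14 had a row, 8 were above the filter and 0 were called in any of the main tests. Ifna14 was called higher in the knockout with the replicate block (0.42, limma adjusted p 0.0404). From the knockout to the lymphomas, Ifna14 was called lower with batch as a term (limma adjusted p 0.029). Ifna9 was called lower with the block (limma adjusted p 0.0337), which uses lymphomas 1, 2 and 3 alone, by numbers that did not pair. Its signals there were 5.24, 5.24 and 6.04, against 5.82, 6.27 and 6.41 in the knockout. In lymphomas 4, 5 and 6 Ifna9 was at 6.30, 6.03 and 6.20. Of the 6 receptor chains 5 were tested, and Ifngr1, the ligand-binding chain of the interferon gamma receptor, fell in the lymphomas against both DN3 groups, while Ifnar2, a chain of the type I receptor, fell against wild type. Ifngr1 was at 9.13, 9.93 and 9.39 in wild type, 8.76, 9.35 and 9.02 in the knockout and 7.34 to 8.09 in the lymphomas, with a median of 7.89. All 6 lymphomas were below both DN3 groups, by -1.64 against wild type (limma adjusted p 0.000191) and -1.20 against the knockout (0.00169). The knockout differed from wild type by -0.44 (adjusted p 0.324, and 0.0218 with the block).

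Ifnar2 was at 8.39, 8.35 and 8.15 in wild type, 7.73, 8.14 and 7.80 in the knockout and 7.20 to 7.80 in the lymphomas. It differed from wild type by -0.77 in the lymphomas (limma adjusted p 0.00482) and by -0.41 in the knockout (adjusted p 0.176, and 0.0433 with the block). From the knockout to the lymphomas the difference was -0.36 (limma adjusted p 0.164, and 0.0499 with the block). That block uses lymphomas 1, 2 and 3 alone, by numbers that did not pair, so its p-value is no support. Ifnar1, Ifngr2 and Ifnlr1 differed from wild type in the lymphomas by -0.18, 0.15 and -0.03, with 0 called.

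Of 13 tested genes of the kinases, STATs and feedback inhibitors, Jak2 rose in the lymphomas, from 6.72 to 6.98 in wild type and 6.38 to 7.01 in the knockout to 7.35 to 7.80. The differences were 0.72 and 0.83 (limma adjusted p 0.00298 and 0.00681). Socs3, a feedback inhibitor of JAK signalling, fell against the knockout by 0.61 (adjusted p 0.00477), as did Cish by 0.36 (adjusted p 0.0499). Of all genes, 4.5% were called higher and 2.12% lower in that comparison, and 2.96% were called higher in lymphoma against wild type. Jak1 and Tyk2 differed from wild type by -0.39 and -0.01 in the knockout and by -0.02 and 0.02 in the lymphomas, with 0 called. With the block 3 of the 13 genes were called lower in the knockout, Jak1 among them (adjusted p 0.0386), where 6.35% of all genes were. Of 15 tested genes of the sensing and induction pathway, the DNA sensor gene Aim2 fell against wild type in the knockout and in the lymphomas, with differences of -2.07 and -2.40 (adjusted p 0.000476 and 1.19e-05), and Irf4 rose against wild type in the lymphomas (limma adjusted p 0.0001). The wild-type mean of Irf4, 4.63, lay below the filter, so its rise is given as at least 2.21-fold, with wild type set at the filter level. It passed that filter through the lymphomas, where it was higher, so its call adds nothing to the count, and Aim2 remains. Of all genes 1.42% were called lower in the knockout and 2.86% in the lymphomas, against wild type.

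Outside the 39 members, 64 of 82 further interferon-induced genes had a row and 52 were tested. In the knockout 3 rose (Epsti1 by 0.88, Slfn5 by 0.71 in measured signal and Ifi27 by 0.66) and 1 fell (Gbp4), where 0.568% of all genes were called higher and 1.42% lower. With the block 8 rose and 5 fell, where 2.88% and 6.35% of all genes did. Epsti1 was at 6.97, 6.90 and 6.66 in wild type and 7.99, 7.75 and 7.43 in the knockout, with no overlap on any array, array 3 included. The limma adjusted p of the 3 rises were 0.0176, 0.0176 and 0.0167. In the lymphomas against wild type 5 rose (Slfn5 by 1.05, Slfn2 by 0.89, Sp100 by 0.82, Slfn1 by 0.69 and Shisa5 by 0.62) and 5 fell, of which 4 were guanylate-binding proteins and the other was the helicase gene Ddx60, with a difference of -0.60; of all genes 2.96% were called higher and 2.86% lower. The wild-type means of Slfn5 and Slfn1, 4.67 and 4.77, lay below the filter. With wild type set at it, Slfn5 rose at least 1.52-fold in the knockout and at least 1.91-fold in the lymphomas. Slfn1 rose at least 1.60-fold in the lymphomas. Both passed that filter through the groups where they were higher, so their calls add nothing to the counts of rises against wild type. Without them Epsti1 and Ifi27 remain in the knockout, and Slfn2, Sp100 and Shisa5 in the lymphomas. Against the knockout 4 rose and 9 fell, Epsti1 and Ifi27 among the latter, with differences of -1.15 and -0.52, where 4.5% of all genes were called higher and 2.12% lower.

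Neighbours of Gbp8 fell as well. The guanylate-binding proteins lie in a cluster on chromosome 5 and another on chromosome 3, per RefSeq's genes of GRCm38.p6. On chromosome 5, Gbp4, Gbp11 (listed as a transcribed pseudogene) and Gbp9 fell 3.99-fold, 3.10-fold and 2.60-fold against wild type (limma adjusted p 5.97e-06, 0.000123 and 3.81e-05), beside the 6.60-fold of Gbp8, and Gbp6 and Gbp10 were not analysed here. Gbp4 was at 9.32, 9.37 and 9.24 in wild type, 8.52, 8.85 and 8.33 in the knockout and 7.03 to 7.75 in the lymphomas. Gbp4 was also called lower in the knockout, with a difference of -0.74 (limma adjusted p 0.0255). With the block Gbp8 and Gbp9 were called lower there too, Gbp9 with a difference of -0.48 in the fit without the block (limma adjusted p 0.161, and 0.0124 with the block). On chromosome 3, Gbp7 fell 2.48-fold against wild type (limma adjusted p 5.58e-05) and was 0.07 higher in the knockout, while the member Gbp3 differed by -0.28 (adjusted p 0.192). These genes are close in sequence, and probes that take up RNA of more than 1 of them would make their falls less separate than they appear.

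Class I antigen presentation, which interferon gamma also induces, showed 1 call among 13 tested genes in the 3 comparisons. That call was in lymphoma against knockout, where 6.62% of all genes were called, against 1.99% and 5.82% in the other comparisons. Psmb9, a subunit of the immunoproteasome, was 0.42 higher in the knockout (limma adjusted p 0.15, and 0.026 with the block) and fell by 0.61 from the knockout to the lymphomas (adjusted p 0.0048).

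**Figure D5:**
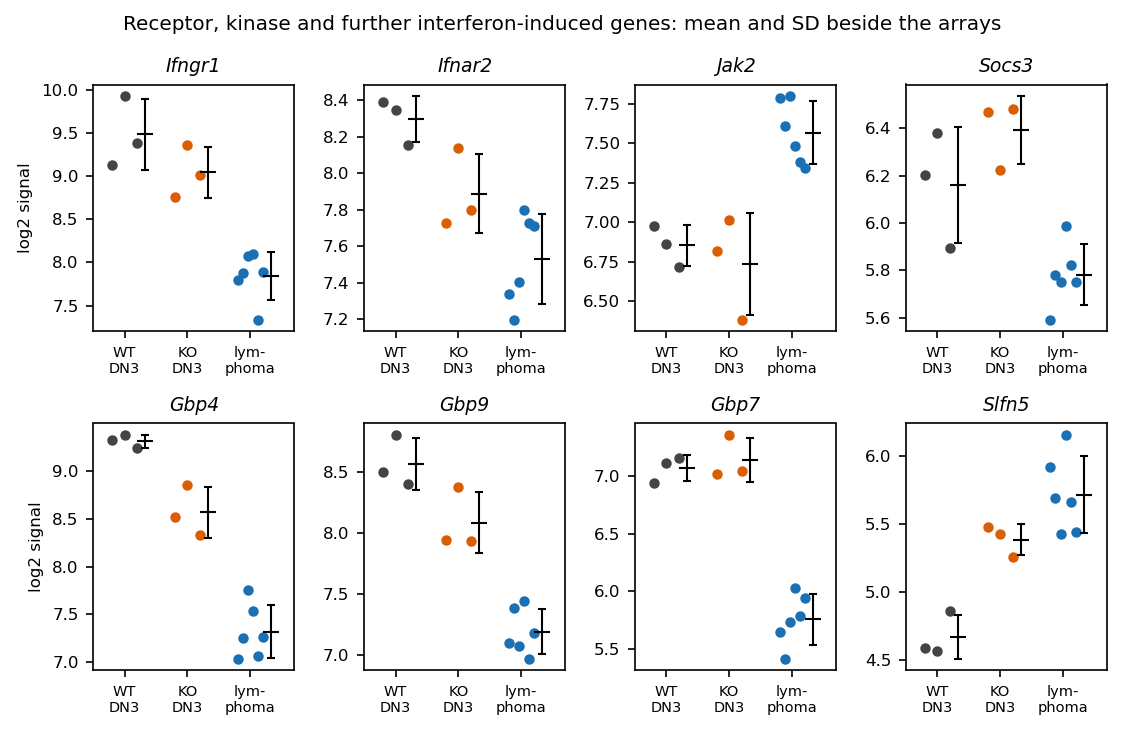
Log2 signals of 4 signalling genes (top) and 4 further interferon-induced genes (bottom) in wild-type DN3, TCF-1 KO DN3 and lymphoma (points, 3, 3 and 6 arrays; bars, mean and SD; each panel has its own axis, which does not start at 0). Ifngr1 and the guanylate-binding proteins are lowest in the lymphomas, Jak2 is highest there, and Slfn5 is above wild type in both TCF-1 KO groups.

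Within groups, the members varied together in part. Over the 12 arrays, after the mean of each group was taken away, the median correlation between pairs of members was 0.18 over 528 pairs, against 0.002 over all pairs of genes. Rtp4, Ifit1, Parp9, Oasl2 and Samd9l tracked the mean of the other members most closely, with Pearson's r of 0.90, 0.87, 0.80, 0.78 and 0.75. In all, 13 members had an r above 0.5, and 6 were below 0 (Ifitm1, Ifit2, Irf1, Ifi35, Stat2 and Oasl1, the last at -0.37). The points share arrays, batch and sex, and these values are descriptions.

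The median within-group SD of the members was 0.15 in wild type, 0.25 in the knockout and 0.18 in the lymphomas, against 0.13, 0.16 and 0.15 over all genes. The spread among knockout arrays was thus where members differed most from other genes. The 10 genes outside the list whose deviations followed the mean of the members most closely were Gabpb1, Rer1, Sh3glb1, Psmd14, Dpy30, Smim7, Pnp, Pigu, Fbxw7 and Fkbp14, with r of 0.98 for Gabpb1 and 0.89 for Fkbp14. None of the 10 is on the lists of interferon genes used here. For all 10, knockout array 3 was the lowest of its group and lymphoma 1 the highest of its own.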

How the data were processed

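Trizol RNA from 12 sorted samples was amplified (NuGEN Pico) and read on Mouse Gene 1.0 ST arrays, according to the protocols in the labels. The deposited values are log2 signals, 1 for each transcript cluster; the submitters' processing notes name RMA and Partek. Log base, versions and genome build were not given in the sources used here, and base 2 was taken from the range of the values (3.00 to 13.3). RMA forces the arrays to a common distribution, so differences are relative to other genes and total RNA per cell cannot be seen. Array number, 3 or 6 a group, limits the precision.

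Of 35556 rows, 21789 carried 1 gene symbol in the platform annotation, 1621 several and 12146 none here. The row with the highest mean stood for a gene with several (999 genes, 3 of them members), which gave 19938 genes, and 14953 with a mean at or above the 25th percentile (log2 4.78) were tested. Each comparison was fitted on its 2 groups with limma 3.58.1 (lmFit, eBayes; R 4.3.3), two-sided, with Benjamini-Hochberg adjustment over all genes tested; "called" means an adjusted p below 0.05. Every adjusted p in the text is from limma. The fit was tested on simulated data with known changes.

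The members and lists were chosen with earlier results of these data known. All 39 members are accounted for; other genes were drawn by a rule: called genes of each list (up to 6 by lowest p) with 2 more, all tested receptor chains, the Jak genes, and the 10 genes most like the members. Genes named beyond it were chosen after their values were seen. The deleted gene was not analysed here. Batches were read from rows with no gene name whose values left a gap of 1 log2 unit or more between 2 sets of arrays; 34 rows gave the split used and 27 the next, which set lymphomas 1 and 2 apart.

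Same-numbered wild-type and knockout arrays deviated from their group means together (r of 0.51, 0.42 and 0.25 for numbers 1, 2 and 3), so these numbers were taken as pairs. The labels do not say what the numbers mark, and the first value also carries the batch. Since the pairs were read from these same values, the block results are no independent support. Promoter windows came from RefSeq GRCm38.p6, for 29 members. Alternatives covered array scaling, the filter, averaged rows, 1 fit to all arrays, replicate block, batch, Xist and leaving out each array. The block kept only numbers found in both groups, so it left out lymphomas 4, 5 and 6.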

Additional observations from a re-analysis of the deposited data

Results flagged for a closer look

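Among the 33 tested members, 3 had a lymphoma far from the other 5, by a rule that flags about 1 in 20 such groups of normally distributed values. The share of all genes that it flags was not computed, so the count is not read as a trait of the members. Ifitm3 was 5.12 in lymphoma 5, against 5.76 to 6.08 in the other 5. Irf7 was 5.21 in lymphoma 6, against 5.40 to 5.51. Zbp1 was 5.67 in lymphoma 6, against 5.96 to 6.12. Irf7 and Zbp1 were not called in any comparison, and Ifitm3 was called lower in the lymphomas with lymphoma 5 left out.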

How the results depend on the processing

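No member difference called in the main fits changed direction under the alternatives. Nor did those of Rtp4, Usp18 and Oasl2 in the knockout against wild type, or of Ifih1 in the lymphomas against either DN3 group. Some differences near 0 did. In the larger batch alone, Oasl2 in lymphoma against wild type went from 0.08 to -0.20, and Ddx58 in the knockout from 0.02 to -0.08. Some medians near 0 did too. That of the factors in the knockout went from 0.03 to -0.03 with centred arrays. That of the OAS genes in lymphoma against wild type went from 0.05 to -0.02 with the block. In knockout against wild type, 298 genes and 0 members were called; the replicate block gave 1380 genes and 6 members, batch as a term 754 and 3, Xist as a term 126 and 2 (the same as leaving out knockout array 3), the larger batch alone 144 genes, and 1 fit to all 12 arrays 1 member. In lymphoma against wild type, 871 genes and 4 members became 549 genes in the larger batch alone and 8 members with Xist as a term. That Xist fit takes its difference from lymphomas 3, 4 and 5 alone, since every wild-type array had high Xist. In lymphoma against knockout, 990 genes and 6 members became 1702 and 11 with batch as a term, and 325 and 3 in the larger batch alone. Leaving out each array in turn gave 57 to 443, 560 to 872 and 431 to 1361 genes, 0 to 2, 4 to 6 and 4 to 8 members, and median member differences of 0.12 to 0.23, -0.15 to -0.06 and -0.35 to -0.24, in that order of comparisons. The cause of these shifts was not tested, beyond the smaller number of arrays where some were left out. The other 136 values of counts and medians stayed within the limits set for them. For single members 347 values kept their side of the threshold, 22 gained a call and 7 lost one. Lymphoma numbers did not pair with DN3 numbers (r of -0.22 and -0.26 for number 2 with wild type and knockout). As a block, without lymphomas 4, 5 and 6, they gave 6 members against wild type and 8 against the knockout. Dim members are limited by the floor of the array signal: Samd9l in the lymphomas, Mx1 and Ifit3 lie below the filter.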
